A study of Mus musculus with 8 samples.

Results

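Interleukins and interleukin receptors were taken as every gene whose symbol in the array annotation starts with Il and a number, which gave 73 of the 18193 genes measured. Each gene was read by 1 probe set, a group of short probes on the array, and where several probe sets named that gene alone the one with the highest mean over the 8 arrays was used. The 73 genes had 115 such probe sets, with 46 genes read by 1 and 27 by more than 1. The choice rests on names, so it also holds genes that are neither a cytokine nor its receptor, such as *Il4i1*, a secreted amino acid oxidase, *Il18bp*, a soluble decoy for IL-18, and *Il1bos*, an antisense transcript of *Il1b*. *Il2rg*, *Il1rl1*, *Il11ra1*, *Il11ra2*, *Il23r*, *Il17c*, *Il17f*, *Il19*, *Il22* and *Il27* were not analysed here.

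The cells were CD3+CD8+CD44+CD62L- T cells, the phenotype of antigen-experienced effector cells, sorted from subcutaneous MC38 tumors, a mouse colon carcinoma line, or from pooled inguinal and axillary lymph nodes (LN) of the same kind of tumor-bearing mouse. All mice were C57BL/6 females, 6 to 8 weeks old when the tumor cells were injected. The groups are tumor IR, tumor no IR, LN IR and LN no IR, where IR is 5 Gy of whole-body irradiation given 5 h before the organs were taken and no IR means that the mice were not irradiated. Each group has 2 arrays from 2 independent experiments, and each array holds RNA of cells pooled from 4 mice. Tumors were digested with liberase and DNase I and spun in Percoll, whereas LN were disrupted mechanically, so tissue and preparation cannot be told apart. Values are log2 intensities, with a group's mean ± SD over its 2 arrays. With 2 arrays a group, their number limits the precision of every value. Called higher or lower here means that a gene moved by 1 or more on the log2 scale and had, in limma's moderated test across the array, a Benjamini-Hochberg value below 0.1. The fold changes and their SE come from that fit.

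*Cd8a* read 12.09 to 12.67 over the 8 arrays, and of 12 measured T cell identity genes none was called in any comparison. Their level was not constant, with a median log2 fold change of -0.36 for IR in LN and -0.30 for IR in tumor. For tumor over LN it was -0.16 without IR and -0.17 with IR. The 2 arrays of a group correlated at 0.992 (tumor IR), 0.993 (tumor no IR), 0.966 (LN IR) and 0.982 (LN no IR) across genes, which are not independent replicates. Markers of macrophages and monocytes, cells that the sort gate should leave out, stood higher in tumor than in LN samples: 15 of 17 measured markers were called higher without IR and 13 with IR, and their mean per array was 9.0 and 10.23 in tumor IR, 10.27 and 10.89 in tumor no IR, 6.75 and 6.91 in LN IR and 6.43 and 6.82 in LN no IR. Fibroblast markers were called higher in tumor for 5 of 9 in both tissue comparisons, and B cell markers lower for 4 of 10. Over all genes 4.5% were called higher and 1.04% lower without IR, and 4.8% and 2% with IR. Of 5 NK cell markers 1 was higher and 1 lower without IR, and 2 and 1 with IR. In both comparisons 1 of 8 dendritic cell markers was lower and 1 of 7 epithelial and carcinoma markers higher. Of 6 CD4 and regulatory T cell markers 1 was lower with IR. These are bulk samples, in which fewer cells of a type and less RNA per cell cannot be told apart.

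Interleukins are secreted proteins by which leukocytes signal to each other and to stromal cells, and most act through receptors built from a private chain that binds the ligand and a chain shared with other interleukins. Receptors for IL-2, IL-4, IL-7, IL-9, IL-15 and IL-21 share the common gamma chain, those for IL-6 and its relatives share gp130, and both kinds signal through JAK kinases and STAT transcription factors. The IL-1 family, with IL-18, signals instead through MyD88 and IRAK kinases to NF-kappaB. In CD8+ T cells IL-7 and IL-15 maintain memory cells, IL-2 drives clonal expansion, and IL-12 and IL-18 raise interferon gamma production, whereas IL-1 and its antagonist are made mainly by myeloid cells.

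The receptor chains that differed between groups were *Il12rb2*, *Il18rap*, *Il7r* and *Il6st*, and the start of each gene is shown because members that move together can be compared in the letters before their first exon. Each window is from RefSeq (GRCm38.p6), runs from 250 bases before to 50 bases after an annotated start of the gene, and has 300 bases. It was searched on both strands for TTCNNNGAA (the STAT motif), GGANNTTCC (kappaB), TGANTCA (AP-1), GTAAACA (FOXO) and TATAAA (the TATA box), and matches are in capitals. *Il12rb2* (chr6:67376139-67376438, minus strand) was called higher in tumor T cells in both tissue comparisons, and *Il18rap* (chr1:40515112-40515411, plus strand) only in that with IR. *Il7r* (chr15:9529827-9530126, minus strand) and *Il6st* (chr13:112463820-112464119, plus strand) were called lower in both.
Il12rb2: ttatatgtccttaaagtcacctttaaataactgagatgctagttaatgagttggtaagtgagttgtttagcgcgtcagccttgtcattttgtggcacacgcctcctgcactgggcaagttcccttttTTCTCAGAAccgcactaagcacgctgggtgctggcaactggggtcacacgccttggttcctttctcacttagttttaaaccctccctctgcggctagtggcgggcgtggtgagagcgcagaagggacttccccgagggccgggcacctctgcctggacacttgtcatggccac
Il18rap: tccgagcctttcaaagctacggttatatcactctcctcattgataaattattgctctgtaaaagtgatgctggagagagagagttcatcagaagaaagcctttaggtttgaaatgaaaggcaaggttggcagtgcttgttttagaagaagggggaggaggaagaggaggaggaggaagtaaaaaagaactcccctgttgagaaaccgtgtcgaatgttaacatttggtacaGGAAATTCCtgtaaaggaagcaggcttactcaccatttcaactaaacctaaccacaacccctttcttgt
Il7r: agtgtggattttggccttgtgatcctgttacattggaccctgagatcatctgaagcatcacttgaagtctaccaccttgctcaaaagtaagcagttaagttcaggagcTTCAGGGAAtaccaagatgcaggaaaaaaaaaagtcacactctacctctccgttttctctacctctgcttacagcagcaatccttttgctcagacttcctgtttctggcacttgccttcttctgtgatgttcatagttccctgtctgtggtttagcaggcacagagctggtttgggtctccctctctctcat
Il6st: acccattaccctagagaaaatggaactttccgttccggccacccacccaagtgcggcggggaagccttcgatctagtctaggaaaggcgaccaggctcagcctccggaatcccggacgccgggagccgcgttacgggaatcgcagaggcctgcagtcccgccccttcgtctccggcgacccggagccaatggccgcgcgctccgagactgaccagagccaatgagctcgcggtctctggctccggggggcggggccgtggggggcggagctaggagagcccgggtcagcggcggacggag
The *Il12rb2* and *Il7r* windows each held 1 STAT match, which starts 123 bases upstream of the start of *Il12rb2* and 142 bases before that of *Il7r*, although these genes differed in opposite directions. The *Il18rap* window held 1 kappaB match, 19 bases before the start, and the *Il6st* window none of the 5 motifs. No window held more than 1 match to these letters, so none overlapped. Other forms of the motifs, kappaB among them, were not searched. Of 32851 promoter windows of the same length, 8.3% held the STAT letters, 4.3% kappaB, 7.8% AP-1, 3.6% FOXO and 13.6% TATA. A match is a run of letters, not a measured binding site. Of the 73 genes, 57 had a window in the table used.

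Among the 73 genes, 13 had a mean log2 intensity over 9 on the 8 arrays, and 12 of these encode receptor chains: *Il7r*, *Il2rb*, *Il10rb*, *Il18r1*, *Il6st*, *Il27ra*, *Il21r*, *Il6ra*, *Il12rb2*, *Il17ra*, *Il4ra* and *Il18rap*, with *Il16* as the other. At the low end, 18 genes stood in all 4 groups under 5.59, the highest lower quartile of any array, and are not shown to exceed background; they include the cytokines *Il3*, *Il6*, *Il7*, *Il9*, *Il10*, *Il17a*, *Il20*, *Il21*, *Il23a*, *Il31* and *Il33*. Probe sets differ in brightness by themselves, so these intensities do not rank the transcripts.

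**Figure D1:**
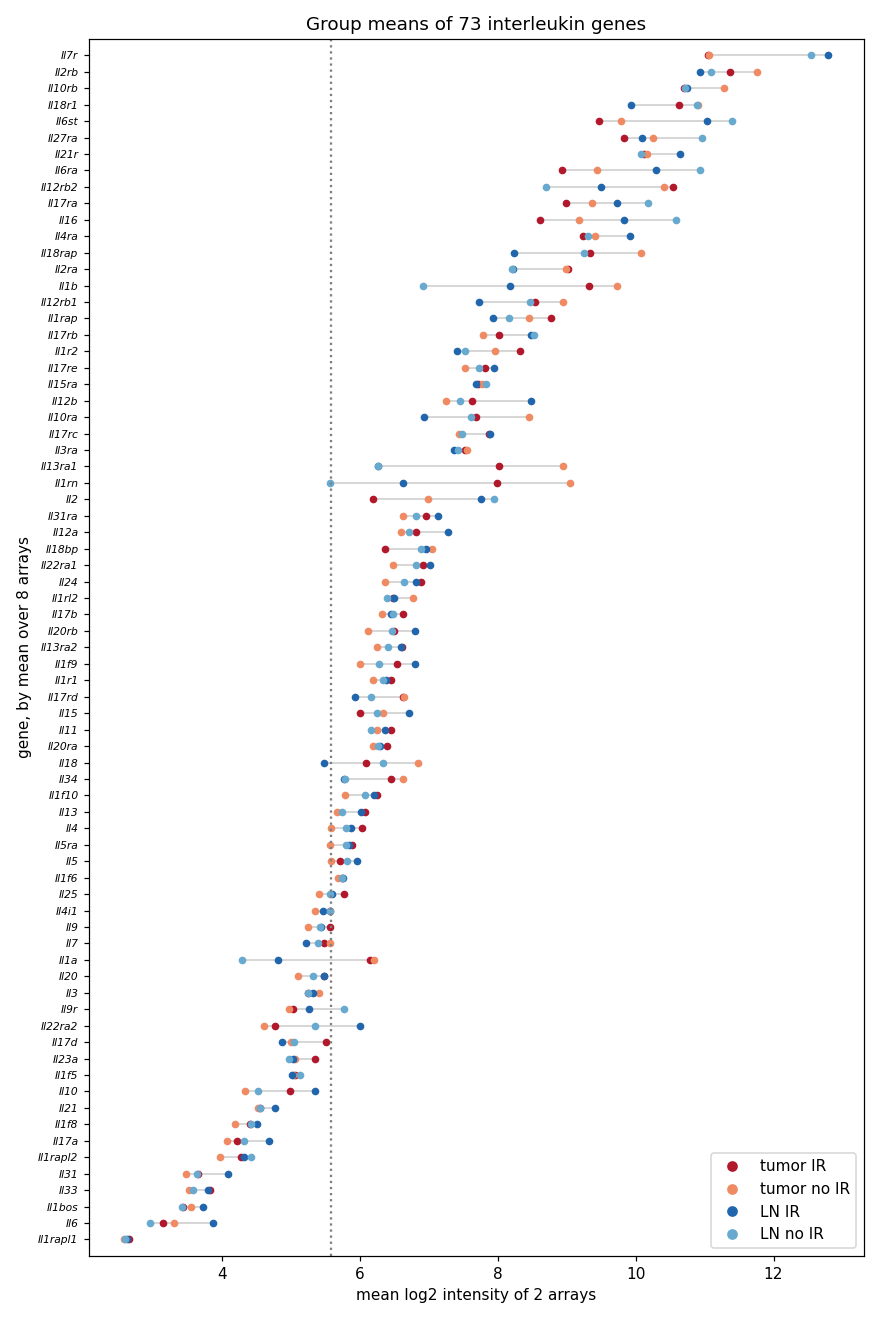
Mean log2 intensity of the 2 arrays of each group (x axis) for the 73 interleukin genes (y axis, ordered by the mean over 8 arrays). Points are group means, grey lines span the lowest and highest of the 4, and the dotted line marks 5.59, the highest lower quartile of an array; the tumor and LN means lie apart for *Il7r*, *Il6st*, *Il16*, *Il12rb2*, *Il1rn* and *Il1b*.

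Tumor T cells were first compared with LN T cells in mice without IR. Of 73 genes, 3 were called higher in tumor T cells (*Il1rn*, *Il1b* and *Il12rb2*), 3 lower (*Il6st*, *Il7r* and *Il16*) and 67 neither. Over all 18193 genes 4.5% were called higher and 1.04% lower, against 4.11% in each direction among the interleukin genes. With arrays scaled to the T cell identity genes 7 were called higher and 3 lower. That scaling raised the median of all genes to 0.15, and no share of all genes called under it is given here. Without it the median log2 fold change of the 73 genes was -0.07, beside -0.09 over all genes. In mice with IR, 2 of 73 were called higher in tumor T cells (*Il18rap* and *Il12rb2*) and 3 lower (*Il7r*, *Il6st* and *Il16*), which is 2.74% and 4.11% of them, where 4.8% of all genes were called higher and 2% lower. After cyclic loess the split was 1 higher and 4 lower, again with no share of all genes to set beside it. The medians with IR were 0.02 for the 73 genes and 0.06 for all genes. The 4 genes called both without and with IR, *Il12rb2*, *Il7r*, *Il6st* and *Il16*, had the same direction in both comparisons. These use separate arrays but share 1 fit. Deviations of arrays with the same replicate number also correlated, at 0.431 between the tumor groups and 0.43 between the LN groups. The 2 comparisons are therefore not independent.

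**Figure D2:**
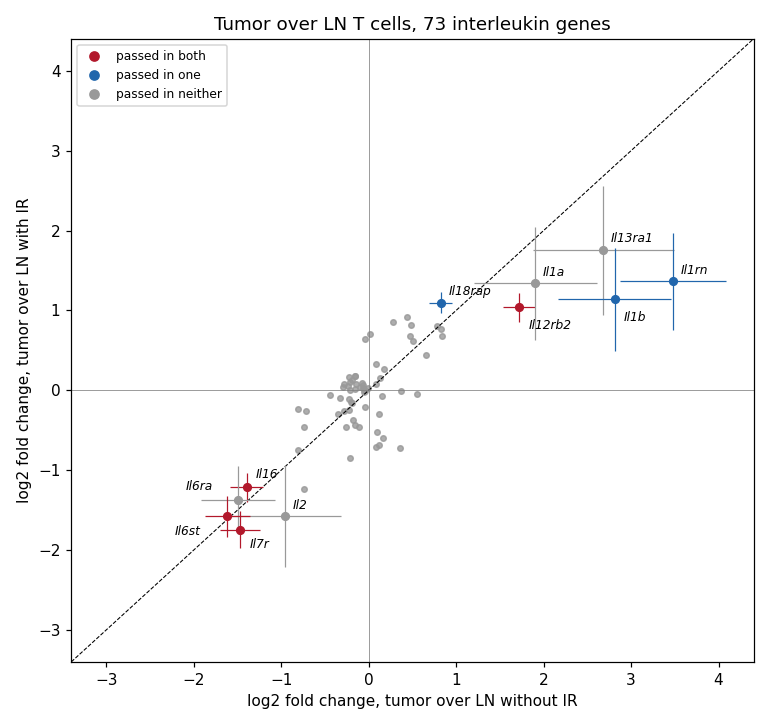
Log2 fold change of tumor over LN T cells without IR (x axis) and with IR (y axis) for the 73 interleukin genes, with the SE of the fit as bars on the named genes and the line of equal change dashed. *Il12rb2* lies at 1.72 and 1.04, *Il7r* at -1.47 and -1.75, and *Il1rn* and *Il1b* have the widest bars among the called genes.

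The receptors of common gamma chain cytokines and IL-13 had 9 measured members, of which 1 was called lower in each tissue comparison and none higher. That member was *Il7r*, the IL-7 receptor alpha chain, which read 10.97 and 11.13 in tumor IR and 10.85 and 11.29 in tumor no IR. In LN, *Il7r* read 12.57 and 13.02 with IR and 12.38 and 12.69 without IR. All 4 tumor arrays stood below all 4 LN arrays (log2 fold change -1.47 ± 0.23 SE, adjusted p = 0.0135 without IR, and -1.75 ± 0.23, adjusted p = 0.00634 with IR), and both of its probe sets were called in both comparisons. *Il2rb*, the signalling beta chain shared by IL-2 and IL-15, read 11.45 and 11.29 in tumor IR and 11.83 and 11.68 in tumor no IR. In LN, *Il2rb* read 10.83 and 11.04 with IR and 10.93 and 11.27 without IR. The tumor arrays were the brighter ones, but the differences of 0.66 (adjusted p = 0.0941) without IR and 0.44 (adjusted p = 0.190) with IR stayed under the fold limit. *Il2ra*, the CD25 chain that makes the IL-2 receptor high-affinity, read 8.95 and 9.08 in tumor IR and 8.96 and 9.03 in tumor no IR. In LN, *Il2ra* read 8.79 and 7.64 with IR and 8.55 and 7.87 without IR. Its 4 tumor arrays lay above all LN arrays, while the LN arrays of each group were far apart, with the lower value on replicate 2 in both, and the tissue difference did not pass (0.79, adjusted p = 0.351 without IR, 0.80, adjusted p = 0.254 with IR). With LN IR replicate 1 left out, *Il2ra* was called higher in tumor T cells with IR (1.37, adjusted p = 0.0154).

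*Il15ra*, which presents IL-15 to neighbouring cells, read 7.75 and 7.67 in tumor IR and 7.79 and 7.75 in tumor no IR. In LN, *Il15ra* read 8.26 and 7.11 with IR and 7.83 and 7.85 without IR, with the LN IR arrays on either side of all others and no call. *Il21r*, the IL-21 receptor, read 10.17 and 10.08 in tumor IR and 10.13 and 10.20 in tumor no IR. In LN, *Il21r* read 10.81 and 10.49 with IR and 9.75 and 10.41 without IR, also with no call. *Il4ra*, shared by the IL-4 and IL-13 receptors, read 9.29 and 9.18 in tumor IR and 9.30 and 9.53 in tumor no IR. In LN, *Il4ra* read 9.95 and 9.89 with IR and 8.63 and 9.98 without IR, and here the LN no IR arrays themselves differed by more than 1. *Il9r* came under the fold limit without IR (-0.81 ± 0.21, adjusted p = 0.0807) at intensities of 4.82 to 6.01, near or under the lower quartile. *Il13ra1*, a chain of the IL-13 receptor that macrophages carry, read 7.06 and 8.96 in tumor IR and 8.29 and 9.59 in tumor no IR. In LN, *Il13ra1* read 6.69 and 5.82 with IR and 5.39 and 7.12 without IR. Its tumor arrays were the higher ones except that tumor IR replicate 1, at 7.06, stood below LN no IR replicate 2, and it was over the fold limit without a call (2.68 ± 0.81, adjusted p = 0.130 without IR, 1.76 ± 0.81, adjusted p = 0.243 with IR). Of its 4 other probe sets 1 was called higher without IR (2.64, adjusted p = 0.0683).

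Of the 7 measured common gamma chain cytokines with IL-13, none was called in any comparison. *Il2*, the T cell growth factor, read 6.35 and 6.03 in tumor IR and 6.76 and 7.21 in tumor no IR. In LN, *Il2* read 8.51 and 7.02 with IR and 8.81 and 7.07 without IR. Both tumor IR arrays lay below both LN IR arrays, and replicate 1 of each LN group was over 1 unit above replicate 2. The difference with IR was past the fold limit but not the adjusted p (-1.58 ± 0.64, adjusted p = 0.189). It passed without LN IR replicate 2 (-2.32, adjusted p = 0.0830) and under the robust fit (adjusted p = 0.0973). *Il15*, a survival cytokine of memory CD8+ T cells, read 5.93 and 6.07 in tumor IR and 6.11 and 6.56 in tumor no IR. In LN, *Il15* read 7.16 and 6.26 with IR and 6.40 and 6.09 without IR, with the highest value on LN IR replicate 1 alone. Without LN IR replicate 2 *Il15* was called lower in tumor T cells with IR (-1.17, adjusted p = 0.0381). *Il21*, made by helper T cells, read 4.75 and 4.36 in tumor IR and 4.52 and 4.52 in tumor no IR. In LN, *Il21* read 4.64 and 4.89 with IR and 4.61 and 4.51 without IR, all under 5.59.

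The IL-6 and IL-12 family receptors had 6 measured members, of which 1 was called higher and 1 lower in tumor T cells, without and with IR alike. *Il12rb2*, the signalling chain of the IL-12 receptor, read 10.56 and 10.52 in tumor IR and 10.45 and 10.39 in tumor no IR. In LN, *Il12rb2* read 9.38 and 9.62 with IR and 8.48 and 8.91 without IR. All tumor arrays exceeded all LN arrays, and LN IR lay between tumor and LN no IR (log2 fold change 1.72 ± 0.18 SE, adjusted p = 0.00284 without IR, 1.04 ± 0.18, adjusted p = 0.0196 with IR). The call with IR was near its limit: it was lost without tumor IR replicate 1 (adjusted p = 0.124), without tumor IR replicate 2 (adjusted p = 0.133) and without LN IR replicate 1 (log2 fold change 0.92). After cyclic loess it came under the fold limit (0.94). *Il12rb1*, the chain that IL-12 and IL-23 receptors share, read 8.43 and 8.65 in tumor IR and 8.87 and 9.04 in tumor no IR. In LN, *Il12rb1* read 7.88 and 7.57 with IR and 8.70 and 8.25 without IR. It was higher on both tumor IR arrays than on either LN IR array, under the fold limit (0.81 ± 0.21, adjusted p = 0.0592), and the groups without IR differed by 0.48 (adjusted p = 0.297).

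*Il6st* encodes gp130, the chain through which IL-6, IL-11 and related cytokines signal, and read 9.17 and 9.76 in tumor IR and 9.67 and 9.90 in tumor no IR. In LN, *Il6st* read 10.98 and 11.10 with IR and 11.13 and 11.67 without IR. Every tumor array was below every LN array (log2 fold change -1.62 ± 0.26 SE, adjusted p = 0.0141 without IR, -1.58 ± 0.26, adjusted p = 0.0147 with IR). All 4 of its probe sets pointed the same way in both comparisons, with 4 called without IR and 1 with IR, and the call without IR was lost when tumor no IR replicate 1 was left out (adjusted p = 0.112). *Il6ra*, the chain that binds IL-6 itself, read 8.32 and 9.53 in tumor IR and 8.96 and 9.90 in tumor no IR. In LN, *Il6ra* read 10.35 and 10.24 with IR and 10.91 and 10.95 without IR. It too was lower on every tumor array than on every LN array. The difference was past the fold limit in both comparisons, but the 2 arrays of each tumor group lay far apart and neither passed (-1.50 ± 0.43, adjusted p = 0.111 without IR, -1.37 ± 0.43, adjusted p = 0.102 with IR). Its other probe set was called lower in both (adjusted p = 0.0363 and 0.0227), and so was the used one under the robust fit (adjusted p = 0.0257 and 0.0293). *Il27ra*, the IL-27 receptor, read 9.95 and 9.70 in tumor IR and 10.24 and 10.27 in tumor no IR. In LN, *Il27ra* read 10.23 and 9.94 with IR and 10.89 and 11.04 without IR, with a difference under the fold limit without IR (-0.71 ± 0.17, adjusted p = 0.0588). Among the 6 measured ligands of these families none was called in any comparison.

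**Figure D3:**
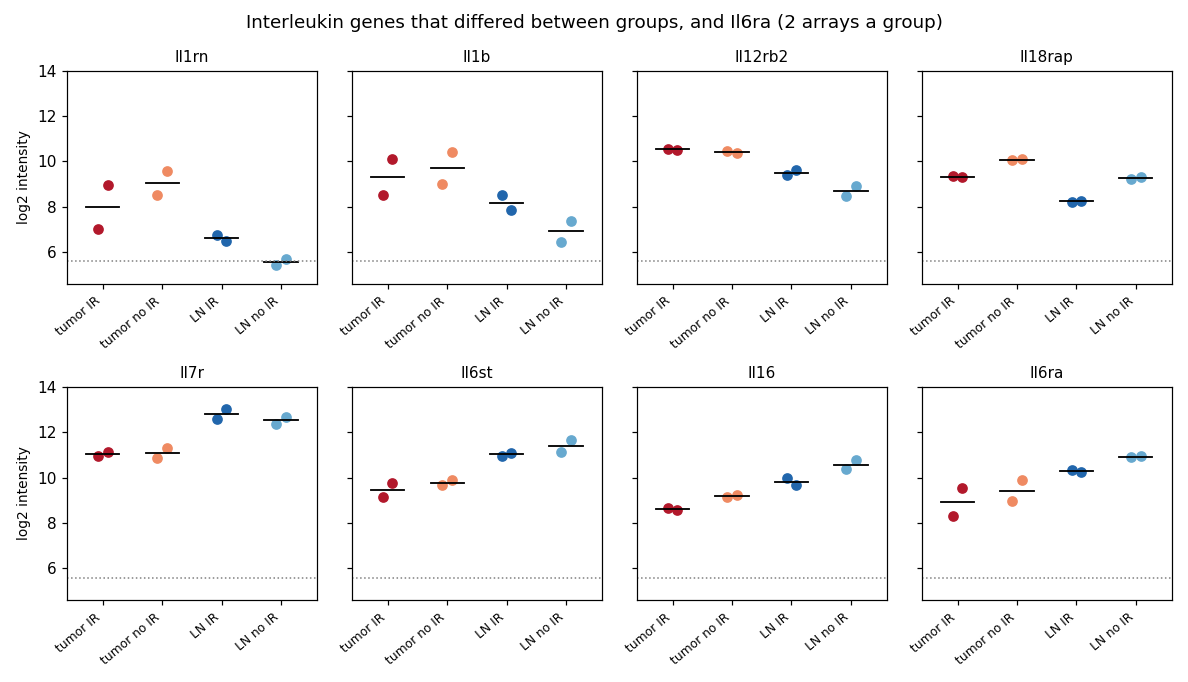
Log2 intensity (y axis) on the 2 arrays of each group (x axis) for the 7 interleukin genes called in any comparison and for *Il6ra*, with group means as bars and the highest lower quartile of an array, 5.59, dotted. *Il18rap* sits close to its group means on all arrays, and *Il7r*, *Il6st*, *Il16* and *Il6ra* have every tumor array below every LN array.

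Of 8 measured IL-1 family receptors, none was called without IR and 1 was called higher in tumor T cells with IR. This was *Il18rap*, the accessory chain of the IL-18 receptor, which read 9.36 and 9.30 in tumor IR and 10.06 and 10.09 in tumor no IR. In LN, *Il18rap* read 8.20 and 8.27 with IR and 9.21 and 9.29 without IR. The 2 arrays of each group differed little, and tumor arrays exceeded the LN arrays of the same irradiation (log2 fold change 1.10 ± 0.13 SE, adjusted p = 0.00442 with IR, 0.82 ± 0.13, adjusted p = 0.0145 without IR, where the fold limit was missed). Its other probe set was called without IR too (1.10, adjusted p = 0.00521), as was the used one with arrays scaled to the T cell identity genes (1.06, adjusted p = 0.0137). *Il18r1*, the chain that binds IL-18, read 10.71 and 10.55 in tumor IR and 11.00 and 10.81 in tumor no IR. In LN, *Il18r1* read 10.44 and 9.42 with IR and 11.27 and 10.52 without IR. The 2 LN arrays of each group lay further apart than the tissue means, and neither tissue difference passed (0.02, adjusted p = 0.988 without IR, 0.70, adjusted p = 0.301 with IR). Without LN IR replicate 1 the difference with IR passed (1.21, adjusted p = 0.0322). *Il1rap*, the accessory chain of the IL-1 and IL-33 receptors, averaged 8.78 ± 0.08 in tumor IR and 7.92 ± 0.24 in LN IR (log2 fold change 0.85 ± 0.21, adjusted p = 0.0522), and *Il1r2*, the decoy receptor for IL-1, averaged 8.32 ± 0.04 and 7.40 ± 1.21 in the same groups with no call.

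Among 11 measured IL-1 family ligands and inhibitors, 2 were called higher in tumor T cells without IR and none with IR. *Il1rn*, the IL-1 receptor antagonist, read 7.03 and 8.95 in tumor IR and 8.51 and 9.58 in tumor no IR. In LN, *Il1rn* read 6.77 and 6.48 with IR and 5.43 and 5.70 without IR. All tumor arrays were above all LN arrays, and the tumor arrays differed by over 1 within each group. LN no IR lay at the lower quartile, so the fold change has no exact size (log2 fold change 3.48 ± 0.61 SE, adjusted p = 0.0197 without IR, 1.36 ± 0.61, adjusted p = 0.229 with IR). With IR *Il1rn* was called under the robust fit (1.36, adjusted p = 0.0739) and when tumor IR replicate 1 was left out (2.32, adjusted p = 0.0687). *Il1b*, the inflammatory cytokine IL-1 beta, read 8.53 and 10.11 in tumor IR and 9.02 and 10.43 in tumor no IR. In LN, *Il1b* read 8.50 and 7.85 with IR and 6.46 and 7.36 without IR. With IR the groups nearly met, since tumor IR replicate 1 and LN IR replicate 1 read 8.53 and 8.50 (2.81 ± 0.65, adjusted p = 0.0554 without IR, 1.14 ± 0.65, adjusted p = 0.348 with IR). *Il1a*, which encodes IL-1 alpha, read 5.23 and 7.08 in tumor IR and 5.29 and 7.12 in tumor no IR. In LN, *Il1a* read 4.65 and 4.98 with IR and 4.33 and 4.27 without IR, and replicate 1 of both tumor groups lay under the lower quartile with them. It was not called (1.91 ± 0.71, adjusted p = 0.220 without IR). *Il18*, the ligand of the IL-18 receptor, read 5.71 and 6.48 in tumor IR and 6.70 and 6.98 in tumor no IR. In LN, *Il18* read 6.07 and 4.89 with IR and 6.75 and 5.93 without IR, with overlapping groups. Without LN IR replicate 1 it was called higher in tumor T cells with IR (1.21, adjusted p = 0.0847).

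The mean of the macrophage and monocyte markers was higher on replicate 2 than on replicate 1 in both tumor groups, as were the values of *Il1rn*, *Il1b*, *Il1a* and *Il13ra1*. These 4 genes were also the only ones of the 73 whose tumor no IR arrays differed by 1 or more, and in tumor IR *Il6ra* was the only other one. Of the 17 markers, *Marco*, a scavenger receptor, went the other way (6.99 and 6.65 in tumor IR, 6.54 and 6.33 in tumor no IR). Among the rest, *Adgre1*, a macrophage surface receptor, read 7.89 and 9.36 in tumor IR and 9.52 and 10.18 in tumor no IR. In LN, *Adgre1* read 5.59 and 5.76 with IR and 5.20 and 5.50 without IR, and *C1qa*, a complement subunit of tissue macrophages, read 10.59 and 11.68 in tumor IR and 12.13 and 12.56 in tumor no IR. In LN, *C1qa* read 5.74 and 6.88 with IR and 5.53 and 6.43 without IR. The part of such cells in the *Il1rn* and *Il1b* differences was not tested. The call of *Il1b* was lost without tumor no IR replicate 2 (adjusted p = 0.334), LN no IR replicate 1 (adjusted p = 0.204) or LN no IR replicate 2 (adjusted p = 0.125), and that of *Il1rn* without tumor no IR replicate 2 (adjusted p = 0.163).

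**Figure D4:**
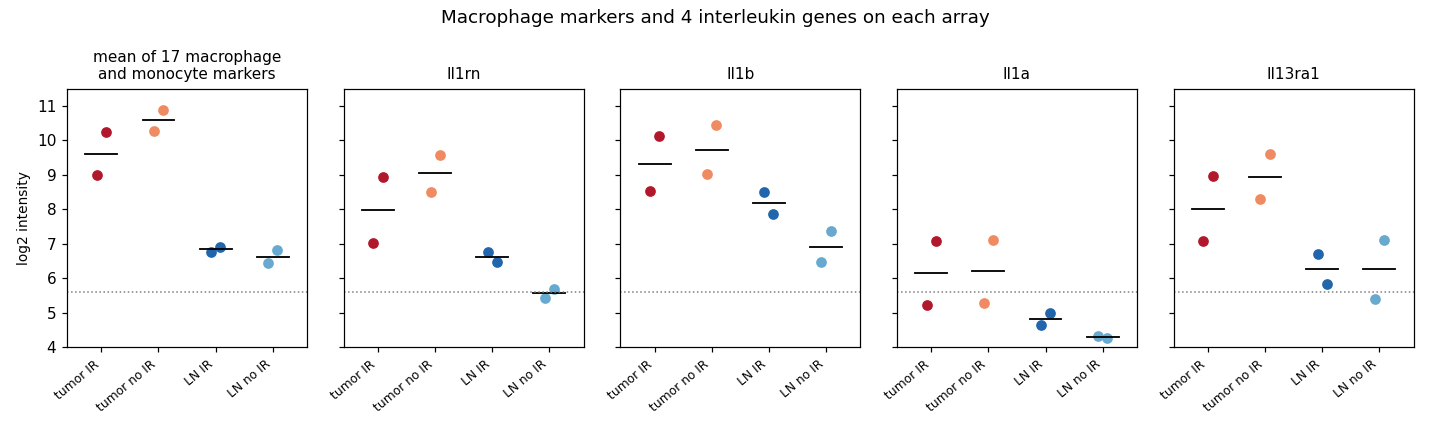
Mean log2 intensity of 17 macrophage and monocyte markers (first panel) and log2 intensity of *Il1rn*, *Il1b*, *Il1a* and *Il13ra1* on the 2 arrays of each group, with replicate 1 drawn left of replicate 2, group means as bars and 5.59, the highest lower quartile of an array, dotted. In both tumor groups replicate 2 is the higher array in all 5 panels.

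*Il16*, a chemoattractant for CD4+ cells that is cut from a larger precursor, read 8.66 and 8.56 in tumor IR and 9.15 and 9.22 in tumor no IR. In LN, *Il16* read 9.97 and 9.68 with IR and 10.38 and 10.78 without IR. All tumor arrays lay below all LN arrays (log2 fold change -1.40 ± 0.18 SE, adjusted p = 0.00686 without IR, -1.22 ± 0.18, adjusted p = 0.0113 with IR). Its 4 probe sets did not move as one: 1 was called in each comparison, with fold changes of -1.40 to -0.37 without IR and -1.22 to 0.09 with IR, and the mean over the 4 gave no call (-0.96 without IR, -0.47 with IR). The call with IR was also lost without tumor IR replicate 2 (adjusted p = 0.107). *Il34*, a ligand of the CSF-1 receptor beside CSF-1, averaged 6.62 ± 0.24 in tumor no IR and 5.79 ± 0.08 in LN no IR, under the fold limit (0.84 ± 0.20, adjusted p = 0.0634).

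No member was called in a tissue comparison among the 6 IL-10 family receptors, the 3 measured IL-10 family ligands, the 5 IL-17 family receptors, the 4 measured IL-17 family ligands, or IL-3 and IL-5 with their receptors. *Il10ra*, the chain that binds IL-10, read 7.73 and 7.65 in tumor IR and 8.37 and 8.53 in tumor no IR. In LN, *Il10ra* read 6.90 and 6.95 with IR and 7.64 and 7.59 without IR. Both tumor groups exceeded the LN group of the same irradiation by less than the fold limit (0.83 ± 0.14, adjusted p = 0.0162 without IR, 0.76 ± 0.14, adjusted p = 0.0208 with IR). Scaled to the T cell identity genes, *Il10ra* was called without IR (1.07, adjusted p = 0.0156). Its other probe sets were dimmer and differed less, by 0.29 and 0.03 without IR and by 0.36 and 0.17 with IR, with no call. *Il17ra*, the common chain of IL-17 receptors, averaged 9.37 ± 0.23 in tumor no IR and 10.17 ± 0.37 in LN no IR (-0.81 ± 0.22, adjusted p = 0.0925). Its other probe set was called lower in tumor T cells without IR (-1.10, adjusted p = 0.0410) and with IR (-1.23, adjusted p = 0.0244). *Il10*, a suppressive cytokine, read 4.71 and 5.26 in tumor IR and 4.43 and 4.25 in tumor no IR. In LN, *Il10* read 5.22 and 5.49 with IR and 4.50 and 4.54 without IR, all under 5.59. *Il22ra2*, a soluble binding protein for IL-22, differed between tissues with IR by -1.24 without passing (adjusted p = 0.138), and its tumor arrays, at 4.59 to 4.83, were also under the lower quartile.

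Genes that act beside the interleukins came from lists of related cytokines and receptors, JAK-STAT and SOCS genes, and IL-1 receptor signalling. Of 38 measured, 4 were called higher and 0 lower in tumor T cells without IR, and 3 higher and 1 lower with IR. Over all 18193 genes the shares were 4.5% higher and 1.04% lower without IR, and 4.8% and 2% with IR. *Csf2*, the cytokine GM-CSF, read 7.85 and 8.22 in tumor IR and 8.70 and 8.97 in tumor no IR. In LN, *Csf2* read 6.76 and 6.82 with IR and 6.80 and 6.36 without IR, higher in tumor T cells in both (2.25 ± 0.21, adjusted p = 0.00176 without IR, 1.24 ± 0.21, adjusted p = 0.0172 with IR). *Cish*, a STAT5 target that restrains cytokine signalling, read 11.11 and 11.02 in tumor IR and 11.89 and 11.92 in tumor no IR. In LN, *Cish* read 10.57 and 8.68 with IR and 9.95 and 8.63 without IR, and was called without IR (2.62 ± 0.62, adjusted p = 0.0621). *Irak2*, a kinase of the IL-1 and Toll-like receptor pathway, was called higher in tumor T cells in both comparisons (1.22 without IR and 1.24 with IR), and *Irak3*, an inhibitor of that pathway known from monocytes and macrophages, without IR (1.23). With IR *Crlf2*, the TSLP receptor chain that pairs with *Il7r*, was called higher (1.11 ± 0.19, adjusted p = 0.0176) and *Stat4*, the STAT through which IL-12 signals, lower (-1.28 ± 0.25, adjusted p = 0.0279). None of the 38 was called in either IR comparison.

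IR was next compared with no IR within each tissue. In LN T cells 0 of 73 interleukin genes were called higher and 1 lower, where 0.786% of all genes were called higher and 0.264% lower, and 15 of the 73 had an unadjusted p under 0.05, beside 2604 of all 18193 genes. With arrays scaled to the T cell identity genes 4 were called higher, among them *Il10* (1.21, adjusted p = 0.0873) and *Il12rb2* (1.18, adjusted p = 0.0529), and 0 lower. That scaling raised the median of all genes to 0.38, and no share of all genes called under it is given here. Without it the medians were 0.05 for the 73 genes and 0.01 for all genes. The gene called was *Il18rap*, which averaged 8.23 ± 0.05 in LN IR and 9.25 ± 0.06 in LN no IR (log2 fold change -1.02 ± 0.13 SE, adjusted p = 0.0289), with both LN IR arrays below both LN no IR arrays. The call sat at the fold limit. It was lost under 6 of the other settings and in every fit that left out 1 array except LN IR replicate 2, with fold changes that stayed between -1.06 and -0.64, and 1 of its 2 probe sets was called. *Il10ra* averaged 6.93 ± 0.04 in LN IR and 7.62 ± 0.04 in LN no IR (-0.69 ± 0.14, adjusted p = 0.0994), and *Il27ra* 10.09 ± 0.20 in LN IR and 10.97 ± 0.11 in LN no IR (-0.88 ± 0.17, adjusted p = 0.0894), both past the adjusted p but under the fold limit. The other *Il10ra* probe sets differed by -0.18 and 0.10 between the LN groups.

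The remaining differences in LN T cells were not called, though 1 of the 3 other probe sets of *Il6st* was called lower (-1.05, adjusted p = 0.0989). *Il12b*, the p40 subunit of IL-12 and IL-23, read 7.70 and 7.56 in tumor IR and 7.35 and 7.14 in tumor no IR. In LN, *Il12b* read 9.05 and 7.92 with IR and 7.43 and 7.49 without IR, so that LN IR replicate 1 stood apart from all others (1.03 ± 0.33, adjusted p = 0.241). On its other probe set the same array read 8.31 and LN IR replicate 2 read 4.17, and the remaining arrays 3.50 to 3.84. *Il1b* differed by 1.27 (adjusted p = 0.415) and *Il1rn* by 1.06 (adjusted p = 0.460), with no call. *Il12rb2* averaged 9.50 ± 0.17 in LN IR and 8.69 ± 0.31 in LN no IR (0.81 ± 0.18, adjusted p = 0.136), with both LN IR arrays above both LN no IR arrays. *Il18r1* differed by -0.96 (adjusted p = 0.298) and passed when LN IR replicate 1 was left out (-1.47, adjusted p = 0.0225), and under the same setting *Il27ra* (-1.02) and *Il18* (-1.45) passed too. *Il7r* read 12.57 and 13.02 in LN IR and 12.38 and 12.69 in LN no IR, which overlapped (adjusted p = 0.633).

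In tumor T cells none of the 73 genes was called by limma in either direction, where 0.0934% of all genes were called higher and 0.0055% lower. At an unadjusted p under 0.05 there were 16 of the 73 and 3023 of all 18193 genes, and the medians were 0.06 for the 73 genes and 0.09 for all genes. *Il18rap* averaged 9.33 ± 0.04 in tumor IR and 10.07 ± 0.02 in tumor no IR, a difference of -0.74 ± 0.13 (adjusted p = 0.216), and *Il10ra* 7.69 ± 0.05 in tumor IR and 8.45 ± 0.11 in tumor no IR (-0.76 ± 0.14, adjusted p = 0.216); in both genes the 2 groups did not overlap. The other *Il10ra* probe sets differed by -0.11 and 0.24 between the tumor groups. *Il18bp* averaged 6.37 ± 0.16 in tumor IR and 7.05 ± 0.02 in tumor no IR (-0.68 ± 0.16, adjusted p = 0.275). The largest difference among the 73 genes, that of *Il1rn*, was -1.06 ± 0.61 (adjusted p = 0.426), with overlapping arrays, and *Il13ra1* followed at -0.93 (adjusted p = 0.583). The macrophage and monocyte markers had a median difference of -1.18 between the same groups with none of 17 called, and their part in the values of *Il1rn* and *Il13ra1* was not tested. *Il7r*, at -0.02 ± 0.23, and *Il12rb2*, at 0.12 ± 0.18, were among the smaller differences between irradiated and unirradiated tumor T cells.

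**Figure D5:**
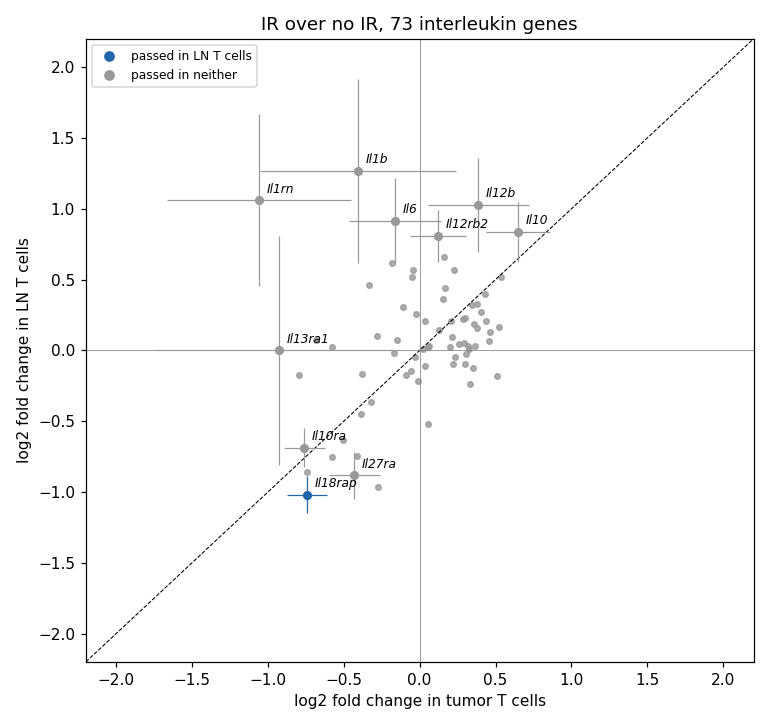
Log2 fold change of IR over no IR in tumor T cells (x axis) and in LN T cells (y axis) for the 73 interleukin genes, with the SE of the fit as bars on the named genes and the line of equal change dashed. *Il18rap* and *Il10ra* lie below 0 on both axes with short bars, and *Il1rn* lies at -1.06 in tumor and 1.06 in LN with bars of 0.61.

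The difference between the 2 IR effects, tumor minus LN, was called for none of the 73 genes and for 0% of all genes in each direction by limma. At an unadjusted p under 0.05 there were 5 of the 73 and 1024 of all genes. These 5, chosen after their values were seen, were *Il1rn* (-2.12 ± 0.86, adjusted p = 0.782), *Il6* (-1.08 ± 0.43, adjusted p = 0.782), *Il18bp* (-0.76 ± 0.23, adjusted p = 0.758), *Il12rb2* (-0.68 ± 0.26, adjusted p = 0.782) and *Il17d* (0.69 ± 0.22, adjusted p = 0.758). All 8 *Il6* values, at 2.90 to 4.34, lay under the lower quartile. For *Il18rap*, whose IR difference was called in LN and not in tumor T cells, the effects differed by 0.28 ± 0.19 (adjusted p = 0.794). Over the 2 IR comparisons 51 of the 73 genes had the same sign in both tissues and 22 opposite signs. The same count was not made over all genes, so it shows nothing particular to the interleukin genes.

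Replicate spread differed between groups. The median absolute difference between the 2 arrays over the 73 genes was 0.15 in tumor IR, 0.17 in tumor no IR, 0.27 in LN IR and 0.20 in LN no IR. A difference of 1 or more was found for 5 genes in tumor IR, 4 in tumor no IR, 8 in LN IR and 4 in LN no IR. In LN IR these were *Il12b*, *Il15ra*, *Il18*, *Il18r1*, *Il1r2*, *Il2*, *Il22ra2* and *Il2ra*, and in LN no IR *Il13ra1*, *Il1r2*, *Il2* and *Il4ra*. In tumor no IR they were *Il1rn*, *Il1b*, *Il1a* and *Il13ra1*, joined by *Il6ra* in tumor IR. *Il2* and *Il2ra* read higher on replicate 1 in both LN groups. So did the mean of the CD4 and regulatory T cell markers (8.92 and 8.35 in LN IR, 8.82 and 8.12 in LN no IR). *Cd4* itself went the other way in LN no IR (7.93 and 8.11). The part of such cells in the *Il2* and *Il2ra* values was not tested.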

How the data were processed

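Gene expression was measured on Affymetrix mouse expression arrays, 2 for each of 4 groups. The authors normalized the arrays by RMA (the sources used here give no version). Deposited values are on the log2 scale and cover 45101 probe sets. RMA forces the arrays to a common distribution, so a shift of most transcripts together would not be seen. Values were taken as deposited. Of the probe sets, 34945 named 1 gene, 932 several and 9160 none in the annotation used, and 64 were controls. All 73 genes matched RefSeq (GRCm38.p6).

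limma 3.58.1 in R 4.3.3 fitted the 4 group means to all 8 arrays by least squares, with empirical Bayes moderation (4 residual and 3.13 prior degrees of freedom) and Benjamini-Hochberg adjustment over 35877 annotated probe sets. The thresholds are those of the study's methods, whose robust fit is an alternative here and whose intersection with SAM was not applied. Python 3.11.15 with pandas 2.3.3 and matplotlib 3.10.9 served for the promoter windows and plots. The fit was tested on simulated data.

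Named with every array were members called in any comparison and a set known in CD8+ T cells. Named with fewer values were members near a threshold or with a high mean, members whose probe sets disagreed, and called genes of 3 related lists. Members and lists were chosen with earlier results of these data known.

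The alternatives were a robust fit, array weights, an intensity trend, a replicate block, only the groups compared, other thresholds, other probe set rules, leaving out the dimmer 50% of probe sets, leaving out each array, and 2 other scalings of the arrays (to T cell identity genes, and by cyclic loess).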

Additional observations from a re-analysis of the deposited data

How the results depend on the processing

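The counts of called interleukin genes were 6 (tumor over LN without IR), 5 (tumor over LN with IR), 1 (IR in LN) and 0 (IR in tumor, and the difference of the IR effects), and no called value of a named gene changed sign in an alternative, whereas some uncalled ones did (*Il4ra* without IR ran between -0.56 and 0.79). In the tissue comparison without IR the count was 13 with no fold limit and 10 with arrays scaled to the T cell identity genes, and 4 to 8 when 1 array was left out. With IR it was 9 under the robust fit and 12 with no fold limit, and 4 to 10 when 1 array was left out, where the fit lacking LN IR replicate 1 gave 9 and that lacking LN IR replicate 2 gave 10. For IR in LN it was 2 under the robust fit, 3 with no fold limit and 4 with the T cell identity scaling. It was 0 with array weights, with only the LN groups fitted, with the most variable probe set, with the mean of all probe sets and after cyclic loess, and 0 to 4 when 1 array was left out. The counts for IR in tumor and for the difference stayed 0 in each fit that left out an array. No share of all genes called is given for these alternatives, so their counts show nothing particular to the interleukin genes. The T cell identity scaling moved the median of all genes to 0.15, 0.17, 0.38 and 0.34 in the first 4 comparisons, where it was -0.09, 0.06, 0.01 and 0.09. The scaling subtracts from each array its mean over the T cell identity genes, so these shifts follow from group differences in that mean. The cause of those differences was not tested.

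The replicate number was tried as a block. Deviations of same-numbered arrays correlated at 0.431 between the tumor groups and 0.43 between the LN groups, but at -0.137 to 0.069 between tissues. Within a tissue, same-numbered arrays thus shared part of their deviations, which the fit reported above, having no block, leaves out. The labels do not say that a number marks an experiment, and what such arrays share was not tested. With the block the counts were 9, 6, 1, 0 and 0, again with no share of all genes beside them. Among the genes given with every array *Il6ra* gained a call without IR (adjusted p = 0.0644) and with IR (adjusted p = 0.0642).

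With 2 arrays a group, and intensities near the lower quartile for the cytokines, a difference below the threshold does not show that levels were alike.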

Other observations

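A probe set that names both *Il4i1* and *Il4i1b*, and was therefore not used for *Il4i1*, read 8.85 and 9.02 in tumor IR and 8.09 and 8.09 in tumor no IR. In LN it read 8.63 and 8.86 with IR and 8.04 and 8.43 without IR. Every IR array was above every no IR array of the same tissue, and neither difference was called (log2 fold change 0.85, adjusted p = 0.259 in tumor, 0.51, adjusted p = 0.271 in LN). *Il4i1* encodes an amino acid oxidase of antigen-presenting cells.

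A pair of members was chosen after their values were seen. *Il31ra*, a chain of the IL-31 receptor, was higher on both IR arrays than on both no IR arrays in each tissue, by 0.34 in tumor (adjusted p = 0.312) and 0.32 in LN (adjusted p = 0.332), without passing. *Il1f9*, which encodes IL-36 gamma, differed in the same way by 0.54 in tumor (adjusted p = 0.287) and 0.51 in LN (adjusted p = 0.206). A rise of the size of that of *Il31ra* was not particular to it in tumor. There the neutrophil markers, and the mast cell and basophil markers, each had a median difference of 0.34 with none called. The epithelial and carcinoma markers had 0.36. Smaller rises were found for endothelial (0.26), fibroblast (0.25), CD4 and regulatory T cell (0.24), B cell (0.20) and dendritic cell (0.13) markers. The T cell identity (-0.30), macrophage and monocyte (-1.18) and NK cell (-0.06) lists went the other way.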
